A study of Rattus norvegicus with 96 samples.

Results

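The genes followed here are 9 of oligodendrocytes and myelin: Mbp, Mobp, Mag, Mog, Cldn11, Mal, Cnp, Ugt8 and Olig1. They were taken by name, as all probe sets that the platform annotation gives to 1 of these symbols, which yielded 16 of the 31042 probe sets and 9 of the 14217 genes measured. Mbp and Mobp had 3 probe sets each, Cnp, Cldn11 and Ugt8 had 2 each, and the other 4 genes had 1. Unless another probe set is named, a gene stands for its brightest probe set, the one with the highest average across arrays.

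Oligodendrocytes wrap axons of the central nervous system in myelin, a stack of membrane that insulates the axon and speeds conduction. The wrap is built from a few very abundant proteins and from galactolipids, and its genes are switched on together by oligodendrocyte transcription factors such as Olig1, Sox10 and Myrf. In grey matter such as the amygdala, oligodendrocytes lie scattered among neurons, and fibre tracts rich in them run along its borders.

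Central amygdala (its central nucleus) was taken from rats and measured on 96 Affymetrix arrays, with an animal of its own named in each sample title. The animals belonged to 5 pairs of lines bred in opposite directions for alcohol intake, each with an alcohol-preferring line, named first here, and a non-preferring one: HAD1 (9 arrays) against LAD1 (10), HAD2 (10) against LAD2 (10), P (10) against NP (10), AA (10) against ANA (10), and sP (8) against sNP (9). Genotype other than the line, treatment, sex, age and alcohol exposure are not given in the labels used here. Values are the authors' log2 levels from RMA, which gives each probe set 1 background-corrected and normalized value per array, so that 1 unit is a doubling. Levels are given as mean ± SD over a line's arrays. Rats of the same line are related, so p-values below cover the spread between the rats of these lines only, and precision is bounded by how many arrays there are.

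The start regions of the genes are shown first, and some of them hold letters that SOX factors and Myrf are known to bind. RefSeq (GRCr8) promoter windows of 300 bases were matched for 7 of the 9 genes, in 8 windows since Mbp has 2 starts, and Mog and Olig1 had none. Printed below are the bases of 3 windows that lie upstream of the annotated gene, 5′ to 3′ on the strand of the gene. Capitals mark, on either strand, matches to the SOX core, spelled ACAAAG, and to an E-box, spelled CAGCTG. They also mark a site of the oligodendrocyte factor Myrf, spelled CTGGCAC, and the Sp1 site, spelled GGGCGG.
Mobp, chr8:128746982-128747116, plus strand: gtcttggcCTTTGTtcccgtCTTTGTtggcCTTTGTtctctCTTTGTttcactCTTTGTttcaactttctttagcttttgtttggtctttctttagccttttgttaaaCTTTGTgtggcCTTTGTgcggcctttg
Cnp, chr10:86011254-86011503, plus strand: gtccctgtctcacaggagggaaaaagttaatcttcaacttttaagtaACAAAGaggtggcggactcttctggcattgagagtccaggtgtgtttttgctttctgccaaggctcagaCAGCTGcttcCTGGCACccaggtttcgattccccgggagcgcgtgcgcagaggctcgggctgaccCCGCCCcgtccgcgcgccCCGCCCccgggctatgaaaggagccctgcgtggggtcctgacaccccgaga
Mal, chr3:135341424-135341673, minus strand: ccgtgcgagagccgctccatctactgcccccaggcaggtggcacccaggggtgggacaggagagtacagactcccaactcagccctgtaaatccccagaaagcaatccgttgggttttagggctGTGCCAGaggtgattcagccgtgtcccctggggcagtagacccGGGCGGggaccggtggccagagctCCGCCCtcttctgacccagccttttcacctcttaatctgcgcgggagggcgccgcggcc

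The SOX core occurred in 4 of the 8 windows (Mbp, Mag, Mobp and Cnp) and in 18.8% of the 33469 windows of that length in the table. The Myrf letters occurred in 3 of the 8, those of Mag, Cnp and Mal, against 4.75% of all windows. Mobp held 8 copies of the SOX core in its window, all on the other strand, of which 7 lie whole in the stretch printed. Cnp was the gene whose window held all 4 of the motifs marked. The E-box was found in 2 of the 8 windows against 15.1% of all, the Sp1 letters in 6 against 33.1%, and the TATA box TATAAA in 0 against 14.2%, and matches of different motifs overlapped 0 times. These are matches of letters and were not tested for binding. Their part in the co-variation of the genes described below was not tested either.

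Several arrays stood apart from their labels, which bears on every comparison below. For each line pair, the 100 probe sets best at separating both lines were chosen on odd and again on even chromosomes, without the array in question and without the 16 probe sets of these genes, and 14 of the 96 arrays lay on the side of the other line by both sets. They were HAD1 28 and LAD1 37, P 1, P 9, NP 1 and NP 9, AA 15, AA 17, AA 19 and ANA 16, and sP 2, sP 9, sNP 8 and sNP 9, and none came from HAD2 or LAD2. One further array, LAD1 36, carries the name LAD1 in its title and HAD1 in its source label. The arrays sP 2 and sNP 2 differed from each other by an SD of 0.0901 over probe sets, against 0.165 for the next closest arrays. All were kept under their titles, and results without the 14 arrays are given beside those with them. Dropping such arrays widens the gap between lines by construction. The log2 ratio of the 3′ to the 5′ probe set of the GAPDH control averaged from 3.33 to 4.09 in the HAD and LAD lines and from 0.197 to 0.432 in the other 6 lines, so lines were tested against each other within pairs, and values set across pairs below are a description. The 11 measured markers of central amygdala neurons had a mean level between 9.75 and 11.96 on every array. They averaged 10.28 in HAD1 and 10.21 in LAD1, and from 10.98 (HAD2) to 11.54 (ANA) in the other lines. Among them Penk, an opioid peptide gene, had a mean over all arrays of 13.87, Prkcd of 9.57 and Crh of 8.95.

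**Figure D1:**
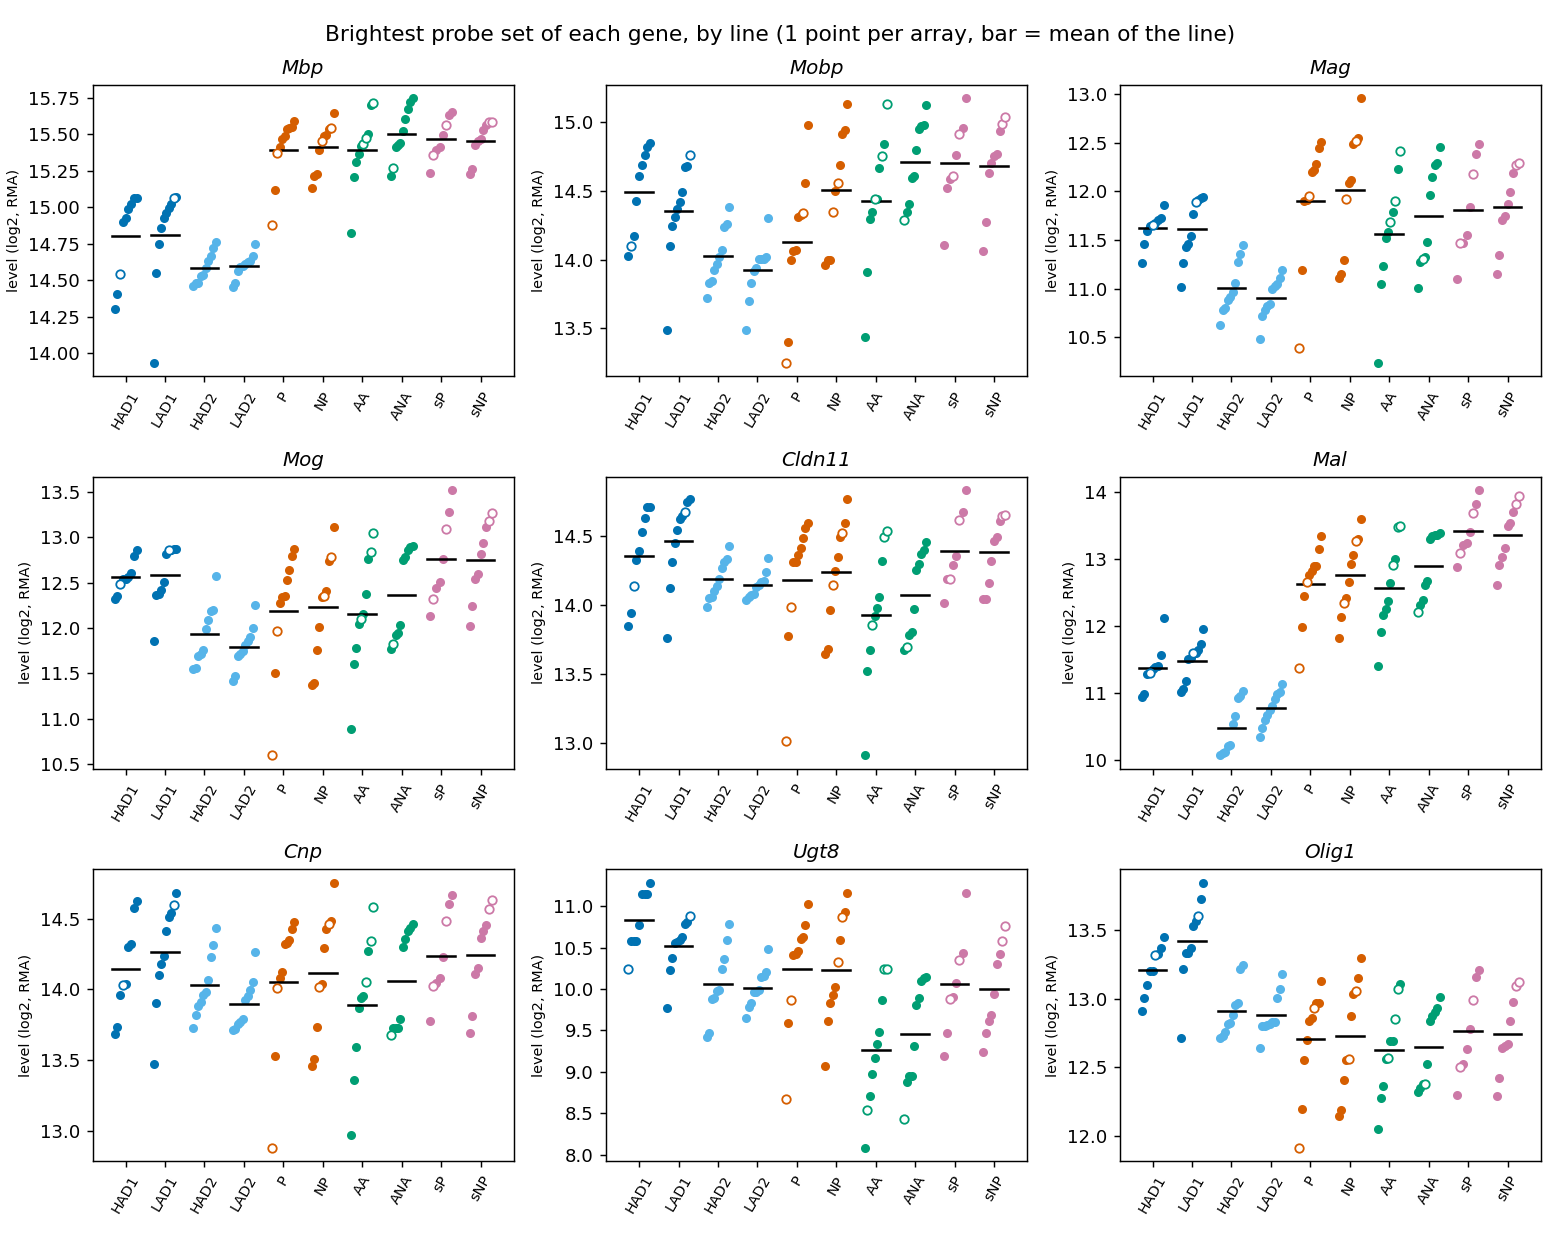
Level of the brightest probe set of each gene (vertical axis, log2 RMA value) on every array of the 10 lines (horizontal axis), with a bar at the mean of the line and open circles for the 14 arrays that resembled the other line. In every panel the 2 lines of a pair overlap, and the points of P, NP, AA and ANA spread further than those of HAD2 and LAD2.

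Across the 5 line pairs, none of the brightest probe sets of the 9 genes passed the test between alcohol-preferring and non-preferring lines, and a dim probe set of Cldn11 passed in HAD1 against LAD1. Past a Benjamini-Hochberg adjusted p of 0.05 over all probe sets in limma, 1 of the 16 probe sets was called for HAD1 against LAD1, beside 0.963% of all probe sets. For HAD2 against LAD2, 0 of 16 were called beside 4.09% of all. For P against NP, AA against ANA, and sP against sNP, 0 of 16 were called beside 0% of all. At an unadjusted p under 0.05 the members numbered 2, 1, 1, 0 and 0 of 16 in that order of pairs, beside 11%, 16.4%, 4.91%, 4.92% and 4.32% of all probe sets. Higher in the preferring line were 6, 13, 2, 2 and 11 of the 16, beside 48.7%, 45.6%, 49.8%, 53.1% and 46.3% of all. Several of the 16 belong to the same gene and the genes moved together across arrays, so these signs are not independent of each other. The members' median differences were -0.014, 0.056, -0.055, -0.19 and 0.015, while the median over all probe sets lay between -0.011 and 0.0061.

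Over the 5 pairs together no member passed either. The mean of the 5 differences passed for 0 of 16 members beside 0.986% of all probe sets, with 2 members at an unadjusted p under 0.05 beside 7.80% of all. The F test of whether the 5 differences vary passed for 0 of 16 beside 4.54% of all, with 0 members at an unadjusted p under 0.05 beside 14.7%. With the line pair as the replicate, 0 of 16 were called beside 0% of all, and 2 had an unadjusted p under 0.05 beside 3.35%. In such tissue, fewer oligodendrocytes and less RNA per oligodendrocyte cannot be told apart.

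**Figure D2:**
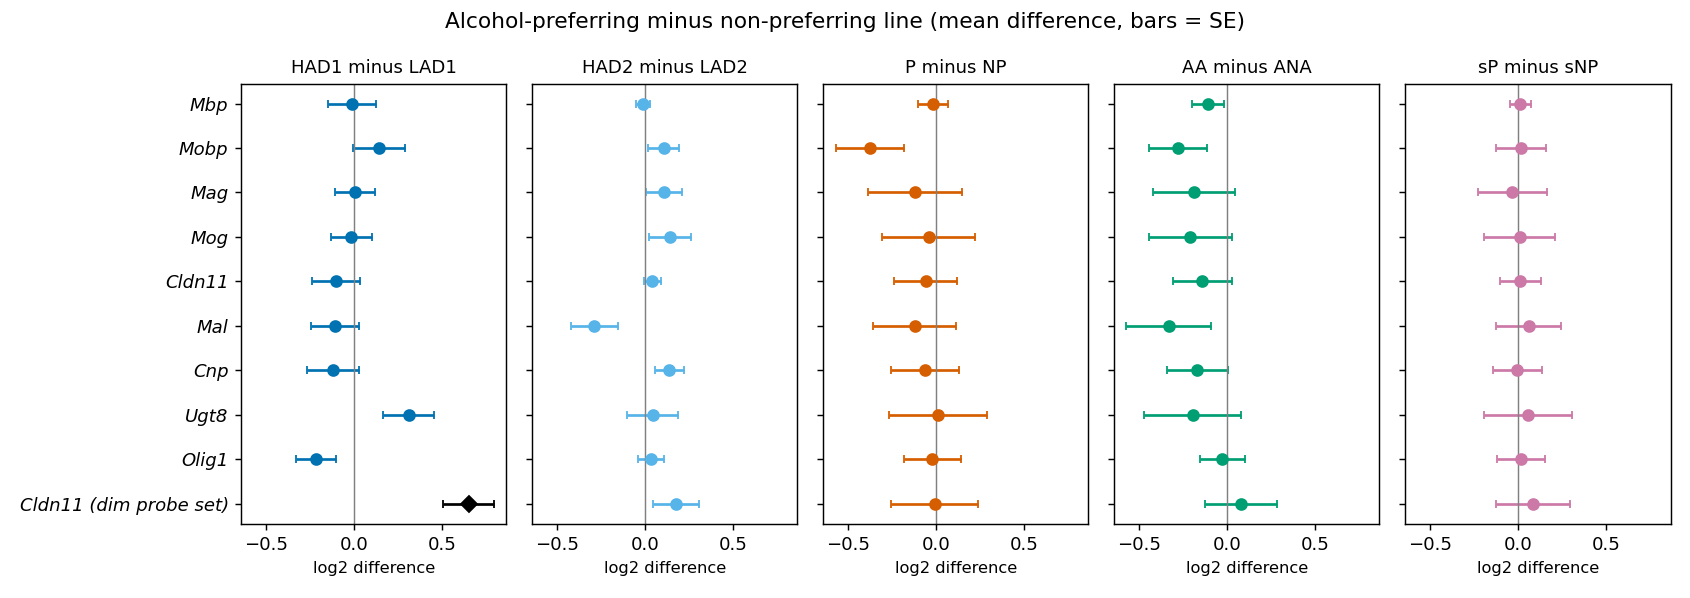
Difference between the preferring and the non-preferring line (horizontal axis, log2 units) for the brightest probe set of each gene and for the dim Cldn11 probe set, in each line pair, with bars of 1 SE from limma. The black diamond is the 1 member past the test, the dim Cldn11 probe set at 0.65 in HAD1 minus LAD1, and the points of AA minus ANA lie below 0 for all 9 brightest probe sets.

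The structural proteins of compact myelin come first. Mbp, which holds the cytoplasmic faces of the membrane together, averaged 14.80 ± 0.30 in HAD1 and 14.81 ± 0.35 in LAD1, and 14.59 ± 0.10 in HAD2 and 14.60 ± 0.084 in LAD2. In the other pairs it averaged 15.39 ± 0.23 in P and 15.41 ± 0.17 in NP, 15.39 ± 0.26 in AA and 15.50 ± 0.18 in ANA, and 15.47 ± 0.14 in sP and 15.45 ± 0.13 in sNP. The lines of each pair differed by less than the SD within them, and the differences with their SE were -0.012 (0.14), -0.012 (0.041), -0.019 (0.084), -0.11 (0.091) and 0.013 (0.062) in the order of pairs above. The lowest Mbp value of a HAD1 or LAD1 array was 13.93 in LAD1 39, against a LAD1 median of 14.95 and maximum of 15.07. HAD2 ran from 14.46 to 14.76 and LAD2 from 14.46 to 14.75, the narrowest spread of the 5 pairs. The other Mbp probe sets spread more within lines, with an SD of 0.38 for 1383479_at and 0.48 for 1387341_a_at against 0.21 for the brightest. Their differences were 0.048, 0.030, -0.28, -0.21 and 0.047 for 1383479_at and 0.10, 0.069, 0.0014, -0.36 and 0.029 for 1387341_a_at, none past the test (adjusted p in limma from 0.674 to 1).

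Mobp, a small basic protein of compact myelin, averaged 14.50 ± 0.32 in HAD1 and 14.36 ± 0.37 in LAD1, and 14.03 ± 0.21 in HAD2 and 13.92 ± 0.22 in LAD2. It averaged 14.13 ± 0.51 in P and 14.51 ± 0.42 in NP, 14.43 ± 0.48 in AA and 14.71 ± 0.30 in ANA, and 14.70 ± 0.33 in sP and 14.69 ± 0.33 in sNP. Its differences, with SE, were 0.14 (0.15), 0.11 (0.087), -0.38 (0.19), -0.28 (0.16) and 0.018 (0.14). The one for P against NP was the farthest from 0 among the brightest probe sets of the 9 genes in any pair, and P ran from 13.25 (P 9) over a median of 14.19 to 14.98 (P 3), while NP ran from 13.96 over 14.53 to 15.13. The lines overlapped over most of that range, and limma gave an adjusted p of 1.
The second Mobp probe set, 1368263_a_at, stood at 11.62 ± 0.81 in P and 12.32 ± 0.70 in NP, a difference of -0.70 (SE 0.31, adjusted p 0.958 in limma). P ran from 10.27 over a median of 11.75 to 12.95, and NP from 11.46 over 12.36 to 13.32. The other one, 1370500_a_at, differed by -0.26 (SE 0.27), so all 3 probe sets of the gene had a lower mean in P and none passed the test.

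Mag and Mog are surface proteins of the myelin sheath, Mag on the membrane next to the axon and Mog on the outermost layer. Mag averaged 11.62 ± 0.17 in HAD1 and 11.62 ± 0.32 in LAD1, and 11.01 ± 0.27 in HAD2 and 10.90 ± 0.21 in LAD2. It averaged 11.90 ± 0.65 in P and 12.02 ± 0.65 in NP, 11.56 ± 0.62 in AA and 11.75 ± 0.52 in ANA, and 11.81 ± 0.50 in sP and 11.84 ± 0.40 in sNP. The differences in Mag, with SE, were 0.0035 (0.11), 0.11 (0.10), -0.12 (0.27), -0.19 (0.23) and -0.032 (0.20), all smaller than the SD within the lines. Mog averaged 12.56 ± 0.18 in HAD1 and 12.58 ± 0.34 in LAD1, and 11.93 ± 0.33 in HAD2 and 11.79 ± 0.24 in LAD2. It averaged 12.19 ± 0.69 in P and 12.23 ± 0.59 in NP, 12.16 ± 0.65 in AA and 12.37 ± 0.50 in ANA, and 12.76 ± 0.49 in sP and 12.75 ± 0.43 in sNP. The differences in Mog, with SE, were -0.016 (0.12), 0.14 (0.12), -0.041 (0.26), -0.21 (0.23) and 0.0089 (0.20). Both genes had their lowest value in P on array P 9 (10.39 for Mag and 10.60 for Mog) and in AA on array AA 3 (10.23 and 10.88), and their highest in NP on array NP 8 (12.96 and 13.11), so the same animals stood at the ends of both.

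Mal, a membrane proteolipid of lipid-rich domains that takes part in sorting myelin proteins, averaged 11.37 ± 0.35 in HAD1 and 11.48 ± 0.30 in LAD1, and 10.48 ± 0.39 in HAD2 and 10.77 ± 0.25 in LAD2. It averaged 12.63 ± 0.58 in P and 12.76 ± 0.57 in NP, 12.56 ± 0.68 in AA and 12.90 ± 0.50 in ANA, and 13.42 ± 0.39 in sP and 13.36 ± 0.45 in sNP. Its differences, with SE, were -0.11 (0.14), -0.29 (0.13), -0.12 (0.24), -0.33 (0.24) and 0.062 (0.19). In HAD2 the values ran from 10.07 over a median of 10.38 to 11.03 and in LAD2 from 10.34 over 10.78 to 11.13. The lines overlapped, and the adjusted p in limma was 0.277. In AA the values ran from 11.40 (AA 3) over 12.50 to 13.50 (AA 19), and in ANA from 12.21 (ANA 16) over 12.99 to 13.39. The lowest AA array lay below all of ANA and the highest AA array above it.

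Cldn11, the tight junction protein that seals the layers of myelin, had a bright and a dim probe set. The bright one, 1376711_at, averaged 14.36 ± 0.32 in HAD1 and 14.46 ± 0.32 in LAD1, and 14.18 ± 0.14 in HAD2 and 14.14 ± 0.093 in LAD2. It averaged 14.18 ± 0.48 in P and 14.24 ± 0.38 in NP, 13.93 ± 0.49 in AA and 14.07 ± 0.31 in ANA, and 14.39 ± 0.28 in sP and 14.38 ± 0.25 in sNP. Its differences, with SE, were -0.11 (0.14), 0.042 (0.051), -0.059 (0.18), -0.14 (0.17) and 0.013 (0.12), none past the test. The dim one, 1369609_at, was the only member called in any pair. In the HAD1 pair its deviations correlated with the mean of the other 8 genes at r = 0.42, against 0.91 for the bright one. Whether the dim one was above background there is not known from these values. It stood at 7.29 ± 0.34 in HAD1, with a lowest value of 6.45, a median of 7.35 and a highest of 7.59. In LAD1 it stood at 6.64 ± 0.36, with 6.12, 6.56 and 7.48. HAD1 was higher by 0.65 (SE 0.15, 1.57-fold, adjusted p 0.0309 in limma), with 8 of 9 HAD1 arrays above the LAD1 mean and 9 of 10 LAD1 arrays below the HAD1 mean.

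The 2 exceptions were the arrays already described as resembling the other line. HAD1 28 was the lowest HAD1 value and LAD1 37 the highest LAD1 value. Without them the lines did not overlap, with HAD1 from 7.19 to 7.59 and LAD1 from 6.12 to 6.86. The difference was then 0.85 (SE 0.088, adjusted p 2.06e-06), in a test that called 2.56% of all probe sets and whose differences are raised by the choice of arrays left out. With all arrays the call was narrow: it was lost when any 1 of 13 single arrays was left out (adjusted p 0.0501 to 0.0703), when LAD1 36 was counted as HAD1 (0.132), and in 1 fit of all 10 lines (0.0715). In the other pairs the dim probe set differed by 0.17 (SE 0.13), -0.0082 (0.25), 0.079 (0.21) and 0.085 (0.21). The variation among pairs was not past the test (adjusted p 0.592), so the HAD1 difference is not shown to be particular to that pair. The mean of the 5 differences was 0.20 (SE 0.092, adjusted p 0.562), and 0.32 (adjusted p 0.0199, beside 2.97% of all probe sets called) without the 14 arrays.

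The enzymes come next. Cnp, the cyclic nucleotide phosphodiesterase of the uncompacted parts of myelin, averaged 14.14 ± 0.34 in HAD1 and 14.26 ± 0.37 in LAD1, and 14.03 ± 0.23 in HAD2 and 13.89 ± 0.18 in LAD2. It averaged 14.05 ± 0.50 in P and 14.12 ± 0.44 in NP, 13.89 ± 0.48 in AA and 14.06 ± 0.35 in ANA, and 14.24 ± 0.32 in sP and 14.24 ± 0.33 in sNP. Its differences, with SE, were -0.12 (0.15), 0.14 (0.083), -0.064 (0.19), -0.17 (0.17) and -0.0047 (0.14), and its second probe set gave -0.077, 0.096, -0.052, -0.25 and -0.0082. For both probe sets the lines overlapped in every pair and 0 comparisons passed.

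Ugt8, the transferase that makes galactosylceramide, the main galactolipid of myelin, averaged 10.83 ± 0.36 in HAD1 and 10.52 ± 0.33 in LAD1, and 10.06 ± 0.44 in HAD2 and 10.02 ± 0.24 in LAD2. It averaged 10.25 ± 0.69 in P and 10.24 ± 0.66 in NP, 9.26 ± 0.72 in AA and 9.46 ± 0.63 in ANA, and 10.06 ± 0.61 in sP and 10.002 ± 0.54 in sNP. Its differences, with SE, were 0.31 (0.14), 0.043 (0.15), 0.01 (0.28), -0.20 (0.28) and 0.056 (0.25). HAD1 ran from 10.25 (HAD1 28) over 10.77 to 11.29 and LAD1 from 9.77 over 10.58 to 10.88, overlapping, with an adjusted p of 0.425 in limma. The second Ugt8 probe set, 1368857_at, had a mean of 4.19 over all arrays and hardly followed the other members (r = 0.18).

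Olig1, the basic helix-loop-helix transcription factor of the oligodendrocyte lineage, averaged 13.21 ± 0.18 in HAD1 and 13.42 ± 0.32 in LAD1, and 12.91 ± 0.19 in HAD2 and 12.88 ± 0.16 in LAD2. It averaged 12.71 ± 0.38 in P and 12.73 ± 0.41 in NP, 12.62 ± 0.34 in AA and 12.65 ± 0.28 in ANA, and 12.76 ± 0.33 in sP and 12.75 ± 0.29 in sNP. Its differences, with SE, were -0.21 (0.11), 0.033 (0.073), -0.021 (0.16), -0.028 (0.13) and 0.017 (0.13). In HAD1 the values ran from 12.91 over 13.20 to 13.45, and in LAD1 from 12.71 over 13.45 to 13.85. The LAD1 range enclosed that of HAD1, and the adjusted p was 0.507.

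The AA and ANA pair had the members' median farthest from 0, at -0.19 over the 16 probe sets, and all 9 brightest probe sets had a lower mean in AA. The 9 genes correlated in this pair at a median r of 0.94, so these are not 9 separate observations. None of the 9 passed, with adjusted p of 0.983 to 0.992 in limma. Without AA 15, AA 17, AA 19 and ANA 16 the median was -0.43 and Mal differed by -0.72 (SE 0.22, adjusted p 0.111), still with 0 members called beside 1.87% of all probe sets. Among markers of other cells, the 8 cortical and basolateral neuron markers (8 of 8 measured) had a median difference of 0.12 in the opposite direction. Their mean level ran from 8.13 to 10.14 in AA and from 8.17 to 9.68 in ANA, and their part in the result was not tested. In P against NP, leaving out 4 arrays turned the members' median from -0.055 to 0.093, and in sP against sNP from 0.015 to 0.14, with 0 members called in either, beside 1.62% and 1.75% of all probe sets.

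Beyond these genes, 66 genes of the lineage were listed by role (further structural myelin proteins, lipid synthesis, axon contact and receptors, enzymes and cytoskeleton, transcription factors and progenitor genes), and 55 were measured. In HAD1 against LAD1, 0 of the 55 were higher and 1 lower, beside 0.682% of all genes called. In HAD2 against LAD2, 2 were higher and 0 lower, beside 3.75%. In the other 3 pairs 0 were called, beside 0% of all genes, and 0 for the mean of the 5 differences, beside 0.816%. Without the arrays that resembled the other line, 1 gene was called lower in AA (Mpzl1) and 1 in sP (Pdgfra, the growth factor receptor that marks progenitors). In those fits 1.87% and 1.75% of all probe sets were called. Mpzl1 and Pdgfra had not been kept out of the probe sets that pointed to the arrays left out. Leaving out such arrays also widens the gap between lines by construction, so these calls do not establish a line difference.

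The gene called in both HAD pairs was Gsn, gelsolin, an actin-severing protein abundant in oligodendrocytes, and it went in opposite directions. HAD1 stood at 12.59 ± 0.45, with a lowest, median and highest value of 12.06, 12.57 and 13.63, and LAD1 at 13.46 ± 0.45, with 12.48, 13.53 and 13.94. HAD1 was lower by 0.87 on the log2 scale (the difference was -0.87, SE 0.19, adjusted p 0.0239 in limma). The highest HAD1 value was again HAD1 28 and the lowest LAD1 value LAD1 37. Without them the lines did not overlap, with HAD1 from 12.06 to 12.68 and LAD1 from 12.88 to 13.94, and the difference was -1.11 (adjusted p 9.61e-06). Gsn, unlike the 9 genes, had not been kept out of the probe sets that pointed to these arrays. Among microglial markers, 10 of 10 measured, 2 were lower (Cx3cr1 and C1qc) and 0 higher in HAD1, with a mean level of 9.39 to 9.79 in HAD1 and 9.63 to 10.10 in LAD1. Among vascular markers, 10 of 10 measured, 1 was lower and 0 higher: Abcb1a, a transporter of brain capillaries, at -0.67 (adjusted p 0.0403). Their mean level ran from 9.18 to 9.48 in HAD1 and from 9.18 to 9.65 in LAD1. These counts stand beside 0.682% of all genes called. The part of both lists in the differences of Gsn and of the dim Cldn11 probe set was not tested.

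In the other pair of HAD lines, HAD2 stood at 11.81 ± 0.58, with 10.73, 11.88 and 12.53, and LAD2 at 11.01 ± 0.30, with 10.42, 11.05 and 11.33. HAD2 was higher by 0.80 (SE 0.19, adjusted p 0.0104), and the lines overlapped below 11.33. The Gsn differences in the other pairs were 0.031 (SE 0.25), -0.20 (0.20) and -0.10 (0.18). The variation among the 5 differences passed the test for Gsn (F = 7.61, adjusted p 0.00143). Gsn was picked by its calls in the HAD pairs and the F test uses those same differences, so it is no separate evidence. The call for HAD1 was lost when LAD1 36 was counted as HAD1 (adjusted p 0.206) and without any 1 of 5 single arrays (0.0502 to 0.0534), while the call for HAD2 remained without each single array (0.000692 to 0.0233). Beside 3.75% of all genes called, 2 of the 10 vascular markers were higher in HAD2 (Abcb1a, by 0.66 with adjusted p 0.00933, and Rgs5) and 1 lower (Tek). Abcb1a thus went in opposite directions in the HAD1 and HAD2 pairs, as Gsn did. The vascular mean level was 8.97 to 9.40 in HAD2 and 8.91 to 9.27 in LAD2. Of the 10 microglial markers P2ry12 was higher by 0.64 (adjusted p 4.62e-06) and Cx3cr1 lower (-0.30, adjusted p 0.0033), with a mean level of 9.30 to 9.72 in HAD2 and 9.35 to 10.26 in LAD2. Of the 9 measured astrocyte markers Gjb6 was higher (0.28, adjusted p 0.0131), with a mean level of 11.85 to 12.15 in HAD2 and 11.86 to 12.10 in LAD2. Choroid plexus markers, 5 of 6 measured, had 0 called and a mean level of 6.31 to 6.51 in HAD2 and 6.38 to 7.35 in LAD2. The part of these lists in the Gsn difference was not tested.

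Zfp488, a zinc finger transcription factor of the lineage, was higher in HAD2 (8.48 ± 0.46, from 7.69 over 8.48 to 9.44) than in LAD2 (7.81 ± 0.47, from 7.13 over 7.70 to 8.75). The difference was 0.67 (SE 0.19, adjusted p 0.0445 in limma), with overlapping lines, and the call was lost without any 1 of 16 single arrays (0.0501 to 0.0914). Under 7 other settings of the fit the adjusted p ran from 0.00811 to 0.0502, so the call was not kept in all of them. In HAD1 against LAD1 the Zfp488 difference was -0.50 (SE 0.17, adjusted p 0.218). The variation among the 5 differences passed for Zfp488 (F = 4.80, adjusted p 0.0362), which again reuses the difference by which the gene was picked.

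**Figure D3:**
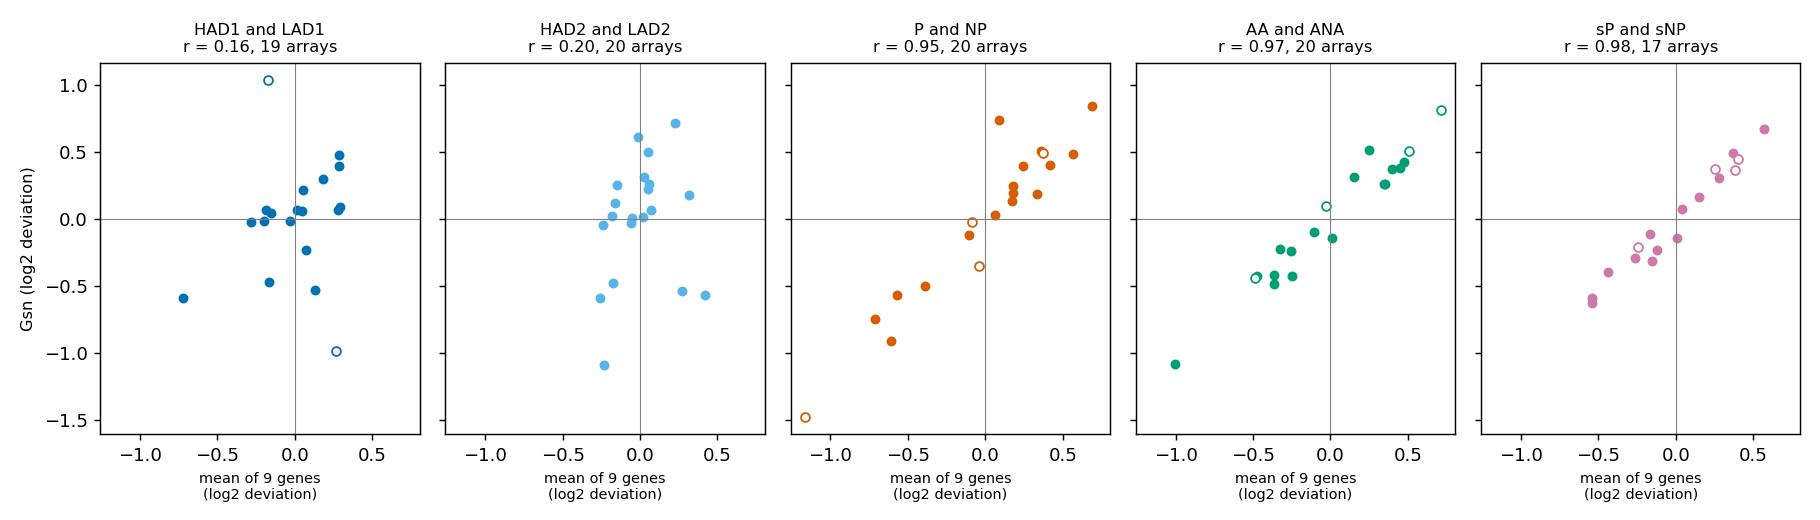
Deviation of Gsn from the mean of its line (vertical axis, log2 units) against the mean deviation of the 9 genes (horizontal axis, log2 units) on each array of the 5 line pairs, with open circles for arrays that resembled the other line. Points follow a line in the P, AA and sP pairs (r of 0.95, 0.97 and 0.98) and scatter in the HAD1 and HAD2 pairs (0.16 and 0.20), where the HAD1 pair without its 2 open circles gives 0.71.

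Arrays of a line differed in most probe sets of these genes by more than in the median probe set. The SD within lines had a median of 0.46 over the 16 probe sets, against 0.17 over all probe sets. It was 0.30 and 0.28 in the HAD1 and HAD2 pairs, and 0.56, 0.52 and 0.44 in the P, AA and sP pairs. Over all probe sets it was 0.17, 0.15, 0.16, 0.17 and 0.14 in that order. The second Ugt8 probe set lay below the median probe set, with an SD of 0.086. In the HAD2 pair so did the brightest probe sets of Mbp (0.095) and Cldn11 (0.12). On 32 of the 96 arrays all 9 genes lay above the mean of their line, and on 27 all 9 lay below it. No such count was made for other sets of genes. The mean of the 9 genes ran from 11.89 to 13.61 in P, from 11.87 to 13.58 in AA and from 12.73 to 13.68 in sNP, but only from 12.29 to 12.86 in LAD2. Cortical and basolateral neuron markers had a mean level of 8.26 to 10.88 in P and 8.26 to 10.04 in NP. In HAD2 and LAD2 it was 7.42 to 8.41 and 7.40 to 7.65. Their deviations correlated with those of the 9 genes at r = -0.85 in the P pair, -0.485 in AA and -0.56 in sP. In the HAD1 and HAD2 pairs r was -0.29 and -0.28. Choroid plexus markers had a mean level of 6.19 to 10.725 in P, with r = -0.0089 in that pair. The part of both lists in the spread was not tested.

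The deviations from the line means correlated between every pair of the 9 genes. Over the 96 arrays, 36 of the 36 gene pairs passed the permutation test within lines after Benjamini-Hochberg adjustment over the 36, each at a p of 1e-05, the smallest the 100000 permutations give, for Pearson's r and for Spearman's rho. The test was run on these 36 alone, so the share of other gene pairs that would pass is not known. Among 10471 genes, 17.4% had a median r above 0.5 with the 9 genes over the 5 line pairs. Pearson's r ran from 0.67 (Mbp with Mal) to 0.96 (Cnp with Cldn11), with a median of 0.88, and rho from 0.71 to 0.95. Without the 2 arrays farthest from the median of the gene on the x axis, the lowest r was 0.67 and the median 0.87. Without the 14 arrays that resembled the other line, the lowest was 0.63 and the median again 0.87. Median r for a gene with the other 8 was highest for Cnp (0.92) and Mog (0.91), followed by Olig1 and Mobp (0.89 each), Cldn11 and Mag (0.89 each), Ugt8 (0.84), Mal (0.82) and Mbp (0.81).

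Within line pairs all 36 correlations were positive in each of the 5. The median r was 0.70 in the HAD1 pair and 0.77 in the HAD2 pair, and 0.93, 0.94 and 0.97 in the P, AA and sP pairs, the last with a lowest r of 0.92 (Mobp with Ugt8). The 3 pairs with the wider spread within lines had higher r than the 2 HAD pairs. Mal followed the other genes least in the HAD1 pair, with a median r of 0.41 and a lowest of 0.31 with Cnp. In the sP pair its median r was 0.97.

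**Figure D4:**
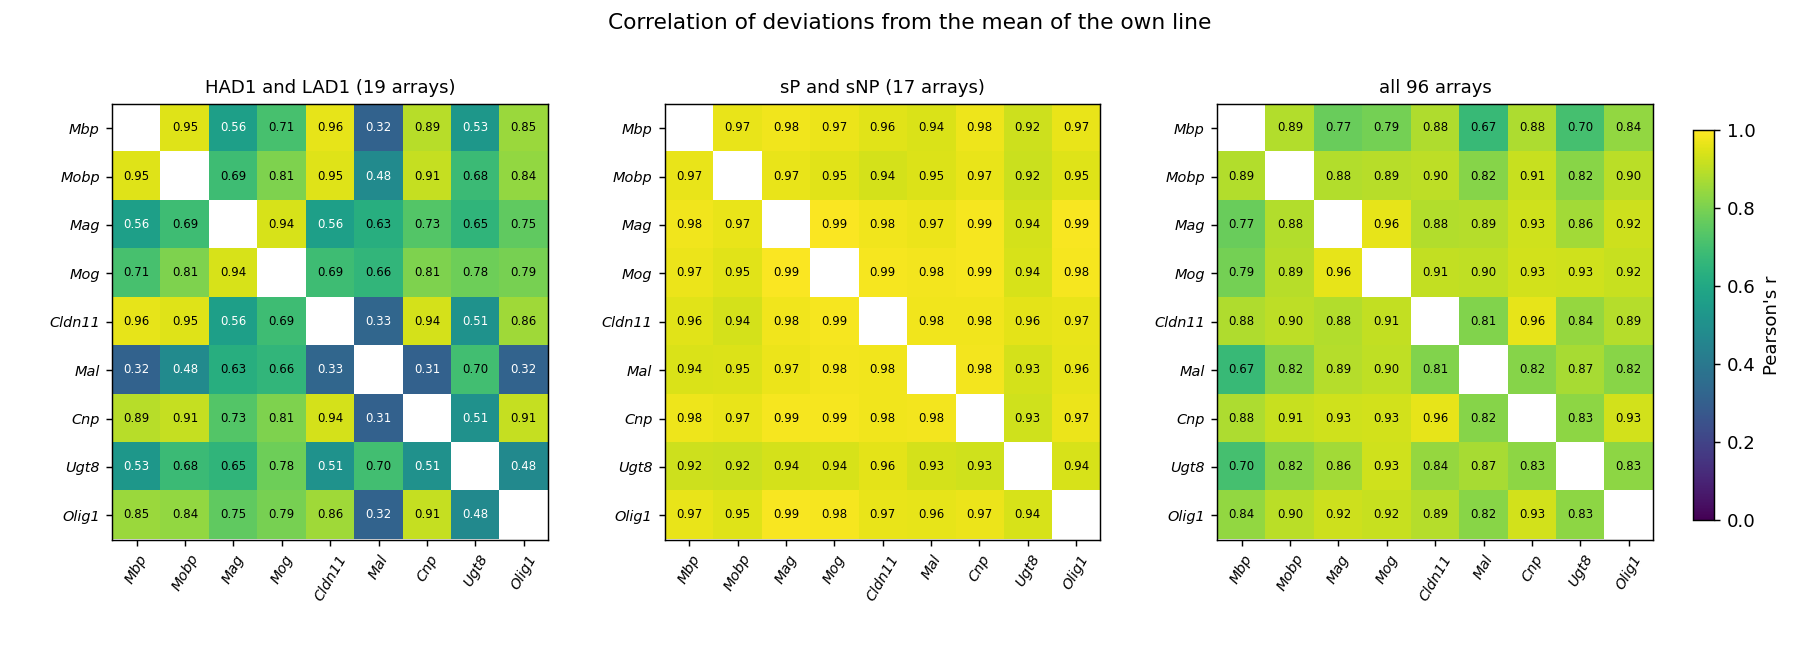
Pearson's r between the deviations of 2 genes from the mean of their line (colour and number, scale 0 to 1) in the HAD1 and LAD1 arrays, the sP and sNP arrays, and all 96 arrays. The sP panel is near uniform with a lowest r of 0.92, and in the HAD1 panel the row of Mal is the darkest, down to 0.31.

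The other lists of the lineage followed the same axis on average, the progenitor list least closely. With 7 to 12 genes measured in each list, the mean standardized deviation of the 9 genes correlated with that of enzymes and cytoskeleton at r = 0.98 over the 96 arrays, with structural myelin at 0.97, axon contact and receptors at 0.96, lipid synthesis at 0.94, transcription factors at 0.93 and progenitor genes at 0.82. For other cells r was 0.60 with astrocyte markers (9 of 10 measured), 0.57 with vascular and 0.42 with microglial markers (10 of 10 each), -0.0079 with pan-neuronal, -0.049 with choroid plexus and -0.070 with Schwann cell markers, and it was -0.41 with central amygdala and -0.61 with cortical and basolateral neuron markers. The pooled value for pan-neuronal markers (10 of 10 measured) covers values of opposite sign, 0.65 in the HAD1 pair, -0.72 in HAD2, -0.48 in P, 0.046 in AA and -0.39 in sP. That for Schwann cell markers covers -0.50 in the HAD1 pair, -0.064 in HAD2, -0.25 in P, 0.24 in AA and -0.048 in sP. Single astrocyte markers had a median r over the 5 pairs from 0.77 (Gfap) to -0.28 (Slc1a2), with 4 of 9 above 0.5. Within the axon contact and receptors list, 9 of the 10 genes with a mean level of at least 7 had a median r over the 5 pairs above 0.5. Lingo1 went the other way, with a median r of -0.65 and a range over the pairs from -0.86 to -0.18. Within the Schwann cell list Pmp22, a peripheral myelin protein gene, had a median r over the 5 pairs of 0.97, and Egr2, the factor that drives Schwann cell myelination, of -0.36. The progenitor genes also parted, with a median r of 0.95 for Bcas1, 0.81 for Enpp6 and 0.75 for Vcan. For Lhfpl3, Pdgfra, C1ql1 and Cspg4 it was 0.48, 0.47, 0.43 and 0.215. These points share arrays, so the values are a description without a test.

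Measures of RNA quality moved with the genes most in the HAD1 pair. The GAPDH 3′ to 5′ log2 ratio correlated with the mean of the 9 genes at r = 0.21 over the 96 arrays and at 0.68 in the HAD1 pair, against 0.10, 0.24, -0.050 and -0.062 in the HAD2, P, AA and sP pairs. Astrocyte markers reached r = 0.94 in the HAD1 pair and 0.31 in the AA pair. The same ratio of the actin control gave 0.63, 0.38, 0.19, -0.013 and 0.062 in the 5 pairs. The part of RNA quality in the co-variation was not tested.

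Among 10471 genes with a mean level of at least 7, the median r with the 9 genes over the 5 pairs had itself a median of 0.030 across genes, and 17.4% of genes exceeded 0.5. The 12 genes most like the 9, themselves left out, were S1pr5 (0.99), Evi2a (0.99), Slc44a1 (0.98), Gpr37 (0.98), Fah (0.98), Apod (0.98), Gltp (0.98), Cfap20dc (0.97), Ermn (0.97), Septin4 (0.97), Gna12 (0.97) and Litaf (0.97). S1pr5 encodes a sphingosine phosphate receptor, Slc44a1 a choline transporter, Gltp a glycolipid transfer protein and Ermn the myelin cytoskeletal protein ermin. Even the lowest r of S1pr5 in any pair was 0.80, in the HAD1 pair. The 6 genes most opposed were Kcnh3 (-0.86), Syt5 (-0.85), Crmp1 (-0.85), Plppr2 (-0.84), Syn2 (-0.84) and Gria2 (-0.83), among them a potassium channel, a synaptotagmin, a synapsin and an AMPA receptor subunit. In the HAD1 pair these 6 lay between -0.075 and -0.47.

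Probe sets of 1 gene parted between line pairs far more than the lines within a pair did. The third Mbp probe set, 1387341_a_at, averaged 7.36 in the HAD1 and HAD2 pairs and 13.60 in the other 3, a difference of -6.23, while the brightest Mbp probe set differed by -0.74 and the second by 0.35. HAD1 ran from 6.92 to 7.44 and LAD1 from 6.81 to 7.29 for the third probe set, and P from 12.69 to 14.65, without overlap. The third Mobp probe set, 1370500_a_at, averaged 8.48 against 12.01 (-3.53), with the first at -0.33 and the second at 0.75. The second Cnp probe set averaged 10.20 against 11.44 and the second of Cldn11 7.01 against 8.15, with the first ones differing by -0.017 and 0.090. Whether the dim probe sets were above background in the HAD pairs is not known from these values, so no fold is given. Mal, with a single probe set, differed by -1.91, and over all probe sets the median was 0.26, with 0.222% below -3.

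How far these probe sets followed the other members differed between the HAD pairs. The third probe set of Mbp, the third of Mobp, the second of Cnp and the second of Cldn11 correlated with the mean of the other 8 genes at r = -0.066, 0.00060, 0.11 and 0.42 in the HAD1 pair. In the HAD2 pair r was 0.27, 0.78, 0.63 and 0.56, and in the P, AA and sP pairs it ran from 0.81 to 0.99. The first probe sets of the same genes reached 0.88, 0.96, 0.92 and 0.91 in the HAD1 pair. Since the difference in GAPDH ratio separates the same groups of lines, and joint normalization of the 5 pairs is neither stated nor denied in the labels, line pair, RNA quality and processing cannot be told apart in this comparison.

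**Figure D5:**
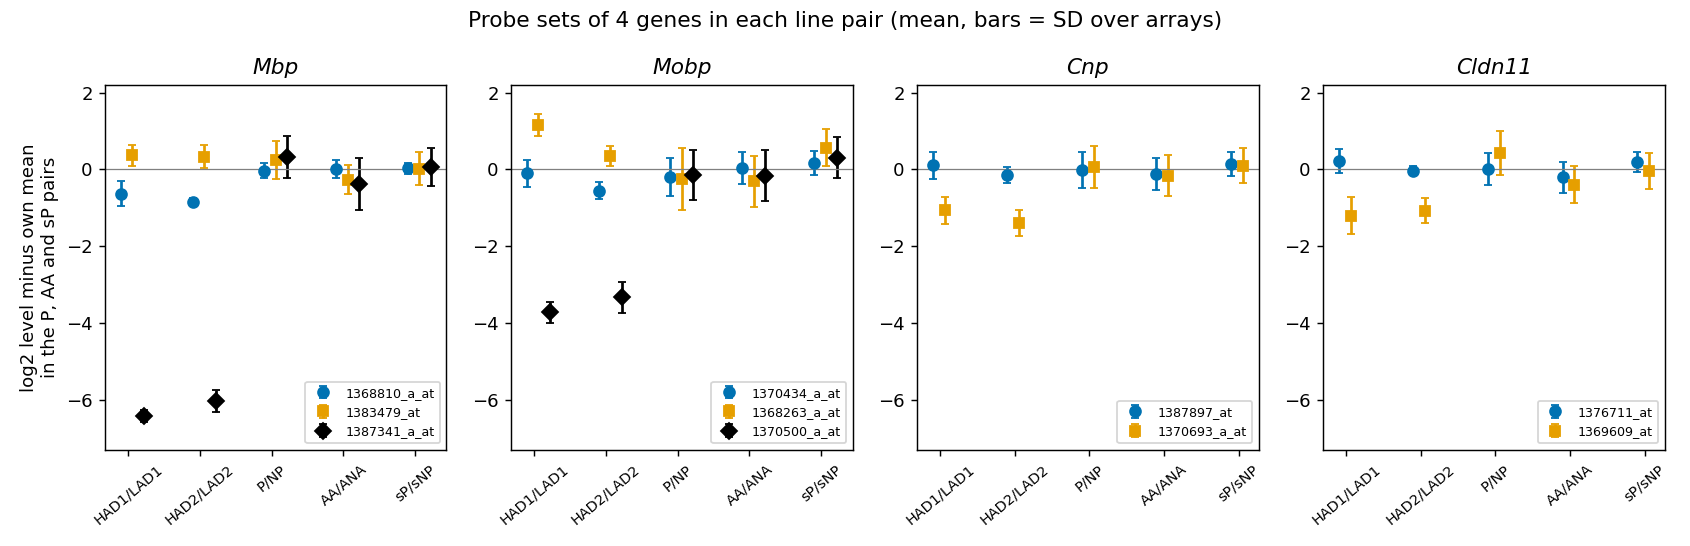
Level of each probe set of Mbp, Mobp, Cnp and Cldn11 in the 5 line pairs (horizontal axis), minus the mean of the same probe set in the P, AA and sP pairs (vertical axis, log2 units), with bars of 1 SD over arrays. The third Mbp probe set lies about 6 units lower in both HAD pairs (-6.23 on average), while the brightest probe set of each gene stays within 1 unit of 0 on average.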

How the data were processed

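RNA was extracted with Trizol and an RNeasy kit, and biotin-labelled cRNA was made from 25 ng of total RNA with a 2-cycle protocol, per the labels' protocols. The deposited values are log2 levels that the authors made with RMA, per the submitters' processing notes. The labels give neither the RMA version nor whether line pairs were normalized jointly. The deposited values were used without further normalization, and 57 control probe sets were left out of the tests. Of the 31042 probe sets, 20826 carry 1 gene symbol in the platform annotation, 436 several and 9780 none.

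Line pairs were tested with limma 3.58.1 in R 4.3.3 (lmFit and eBayes with an intensity trend), 1 fit per pair, and the mean and variation of the 5 differences in 1 fit of all 10 lines. P-values were adjusted by Benjamini-Hochberg over all probe sets, with calls at 0.05. Correlations used deviations from line means with permutation within lines. The 16 probe sets were named in every comparison. Other genes were named if called within the lineage lists, or if among the 12 most or 6 least like the members by median r over the 5 pairs (minimum mean level 7). Members and gene lists were chosen with earlier results of these data known. The steps were tested on simulated data. Alternatives covered a joint fit, array weights, renewed quantile normalization, a filter to the brighter 50% of probe sets, 1 probe set per gene, no trend, the GAPDH ratio as covariate, a replicate block, LAD1 36 moved or left out, the 14 arrays left out, sP 2 and sNP 2 left out, and each array left out.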

Additional observations from a re-analysis of the deposited data

Results flagged for a closer look

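Among 110 sets of values (a probe set or the mean of the 9 genes in 1 line), 6 had an array far from the rest by Dixon's test. Chance flags about 1 in 20 groups, a share close to that found. Array LAD1 39 was the low one in 4 of the 6, which are not separate, since the genes moved together and the mean of the 9 includes them. Its level was 13.93 for Mbp (the next LAD1 array 14.55), 11.86 for Mog (next 12.37), 13.49 for Mobp (next 14.10) and 12.33 for the mean of the 9 genes (next 12.87). Array P 9 was low for the bright Cldn11 probe set in P, at 13.02 (next 13.77). Array HAD1 28 was low for Cldn11 1369609_at in HAD1, at 6.45 (next 7.19).

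The difference between preferring and non-preferring lines varied among the 5 line pairs for Gsn and Zfp488, which were looked at because each was called in a HAD pair. The F test uses those same differences, so it is no separate evidence. The F test passed for 4.54% of all probe sets, and its adjusted p in limma was 0.00143 for Gsn (F = 7.61), with HAD1 lower than LAD1 and HAD2 higher than LAD2. It was 0.0362 for Zfp488 (F = 4.80), where HAD2 was higher than LAD2 and the HAD1 difference of -0.50 missed the threshold.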

How the results depend on the processing

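For the brightest probe sets of the 9 genes, 0 of 2268 values over all comparisons and alternatives passed the threshold, and the smallest adjusted p was 0.111 (Mal, AA minus ANA, without the arrays that resembled the other line). The number of member probe sets called for HAD1 minus LAD1 went from 1 to 0 in 1 fit of all 10 lines, with LAD1 36 counted as HAD1, and, since Cldn11 1369609_at is then not in the test, among the brighter 50% of probe sets and with 1 probe set per gene. It was 0 to 1 with single arrays left out, and 0 to 0 for the other pairs, the mean and the variation. For the mean of the 5 differences it rose from 0 to 1 without the 14 arrays. The causes were not tested. With the line pair as the replicate, leaving out each line pair in turn, an alternative chosen after seeing the data, gave 0 members called each time. The sign of differences smaller than their SE turned in 45 values under other settings and in 119 with 1 array left out, beside 476 and 1749 that kept their direction and side of the threshold.

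With array weights the values were: Mag -0.052 for HAD1 minus LAD1; Mbp 0.051, Mog 0.18, Mag 0.11, Cnp 0.11, Cldn11 0.10, Mal 0.042 and Olig1 0.11 for P minus NP; Mbp -0.0072, Mog -0.064, Mobp -0.031, Cldn11 -0.031, Ugt8 -0.053 and Olig1 -0.023 for sP minus sNP. With quantile normalization again Mbp was 0.043 and Mog 0.0016 for HAD1 minus LAD1. With the GAPDH ratio as covariate they were Mbp 0.081, Mog 0.042, Cnp 0.0049 and Cldn11 0.0071 for HAD1 minus LAD1, Mbp 0.0057, Mog 0.012, Cnp 0.010, Cldn11 0.017 and Olig1 0.032 for P minus NP, and Mbp -0.018, Mog -0.049, Mobp -0.021 and Olig1 -0.043 for sP minus sNP. Mog for HAD1 minus LAD1 was 0.046 with LAD1 36 counted as HAD1 and 0.015 with it left out. Without the 14 arrays they were Mbp 0.049 and Mog 0.025 for HAD1 minus LAD1, Mbp 0.071, Mog 0.27, Mag 0.12, Cnp 0.12, Cldn11 0.13, Mal 0.046 and Olig1 0.069 for P minus NP, Mag 0.089 and Cnp 0.091 for sP minus sNP, and Mog 0.023 for the mean.

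With single arrays left out, the ranges of the differences whose sign turned were as follows. For HAD1 minus LAD1, Mbp ran from -0.11 to 0.050, Mog -0.10 to 0.017 and Mag -0.063 to 0.048. For HAD2 minus LAD2, Mbp ran from -0.031 to 0.0047, Ugt8 -0.037 to 0.11 and Olig1 -0.0048 to 0.066. For P minus NP, Mbp ran from -0.050 to 0.039, Mog -0.14 to 0.14, Mag -0.22 to 0.050, Cnp -0.14 to 0.066, Cldn11 -0.12 to 0.070, Mal -0.23 to 0.017, Ugt8 -0.12 to 0.19 and Olig1 -0.086 to 0.066. For AA minus ANA, Olig1 ran from -0.082 to 0.036. For sP minus sNP, Mbp ran from -0.016 to 0.046, Mog -0.10 to 0.10, Mag -0.13 to 0.069, Mobp -0.060 to 0.10, Cnp -0.074 to 0.061, Cldn11 -0.050 to 0.067, Mal -0.031 to 0.14, Ugt8 -0.10 to 0.18 and Olig1 -0.047 to 0.083. For the mean of the 5 differences, Mog ran from -0.045 to 0.012.

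Arrays of P and NP, and of sP and sNP, share numbers in their names. Same-numbered arrays correlated above 0.1 for 5 of 10 numbers in P and NP and 3 of 8 in sP and sNP. The r ran from -0.11 to 0.50 and from -0.23 to 0.73, and 2 of the 10 and 1 of the 8 correlated best with their own number. Whether the numbers pair the animals is not known from these values, and the main fits used no pairing. With the replicate block, 0 members were called in either pair (smallest adjusted p 0.900 and 0.921), and the sP minus sNP differences of Mag and Cnp were 0.021 and 0.044.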
